A study of Mus musculus with 12 samples.

Results

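The genes described here are 10 genes of the MHC class I pathway and the immunoproteasome, among 15089 genes with deposited counts: the class I heavy chain genes H2-K1, H2-D1 and H2-K2, the light chain gene B2m, the peptide transporter and loading genes Tap1, Tap2 and Tapbp, the immunoproteasome subunit genes Psmb8 and Psmb9, and Nlrc5. They were chosen by gene symbol and by function and not by a rule on their values, but with earlier results of these data known. The data are bulk RNA-seq counts from cortical astrocytes that were taken from mice at postnatal day 16 by magnetic sorting on ACSA-2, an astrocyte surface antigen, with 1 mouse per library and 4 libraries per genotype. The cKO;S/S mice (replicates 15, 16, 17 and 18) carried Nmnat2f/f, NexCre+/- and Sarm1-/-. The cKO;S/+ mice (replicates 8, 9, 10 and 14) carried Nmnat2f/f, NexCre+/- and Sarm1+/-. The ctrl-2 mice (replicates 4, 5, 6 and 7) were labelled Nmnat2f/+, NexCre+/- and Sarm1+/-, so every group, ctrl-2 included, carried NexCre and at least 1 floxed Nmnat2 allele. The study's text is not uniform on the Sarm1 genotype of ctrl-2, and the labels are followed here. Nex-Cre acts in postmitotic glutamatergic neurons of the forebrain, and is not known to act in astrocytes. The comparisons therefore ask how astrocytes differ when cortical neurons lack NMNAT2, an enzyme of NAD synthesis in axons, with 1 or no working copy of Sarm1, whose product degrades NAD.

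MHC class I molecules show peptides from inside the cell to cytotoxic T cells. The immunoproteasome cuts proteins into suitable peptides, the TAP transporter carries these into the endoplasmic reticulum, tapasin helps to load them onto a heavy chain bound to β2-microglobulin, and NLRC5 is the transcriptional coactivator that drives many of these genes. In the brain, class I genes are low in most resting cells and are induced by interferons, in microglia as well as in astrocytes.

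All 10 members matched a RefSeq gene of the mm10 (GRCm38) assembly by Entrez identifier, and 8 of them lie on chromosome 17, in or near the H2 complex. Psmb9 (34182030 to 34187330), Tap1 (34187556 to 34197225), Psmb8 (34198195 to 34201454) and Tap2 (34204479 to 34216321) form 1 block of 34292 bp on that chromosome. Tapbp (33919478 to 33929290), H2-K2 (33974659 to 33978791), H2-K1 (33996012 to 34000619) and H2-D1 (35263094 to 35267497) lie on either side. B2m is on chromosome 2 (122147687 to 122153082) and Nlrc5 on chromosome 8 (94434335 to 94527272). RefSeq lists 9 of the members as protein coding and H2-K2 as a transcribed pseudogene. The class I heavy chains are near copies of each other. Among all windows of 50 bases in GENCODE transcripts, 9.63% of those of H2-K1, 12.8% of those of H2-D1 and 9.38% of those of H2-K2 also occurred in a transcript of another gene, against 0% for B2m, Psmb9 and Nlrc5. How the authors treated reads with several matches is not given in the sources used here, so the split of reads among the heavy chain genes is uncertain.

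The upstream sequences of H2-K1, H2-D1, B2m and Tap1 are shown next as background, since class I heavy chain genes and B2m are known to share control elements. Whether these elements bear on the levels measured here was not tested. They are RefSeq GRCm38 sequences on the gene's own strand, ending 1 base before the start of a transcript whose first base is also the first base of the deposited exons. For H2-K1 this start, at 34000333, lies inside the RefSeq gene span that ends at 34000619, so its window is upstream of that transcript but within the gene span. Capitals mark matches, on either strand, to 5 motifs: GAAANNGAAA (interferon-stimulated response element), AANNGAAA (interferon regulatory factor core, which lies inside the first motif where both match), GGGANNNNCC (NF-κB), TGACG (the X2 box letters) and CCAAT (the Y box).
H2-K1, chr17:34000334-34000513, minus strand: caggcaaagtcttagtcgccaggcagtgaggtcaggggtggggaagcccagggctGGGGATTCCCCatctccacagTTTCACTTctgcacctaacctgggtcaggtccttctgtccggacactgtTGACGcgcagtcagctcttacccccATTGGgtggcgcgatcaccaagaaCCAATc
H2-D1, chr17:35262914-35263093, plus strand: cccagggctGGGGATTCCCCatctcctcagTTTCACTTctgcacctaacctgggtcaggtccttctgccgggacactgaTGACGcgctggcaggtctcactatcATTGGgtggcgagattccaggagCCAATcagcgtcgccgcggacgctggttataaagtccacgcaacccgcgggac
B2m, chr2:122147507-122147686, plus strand: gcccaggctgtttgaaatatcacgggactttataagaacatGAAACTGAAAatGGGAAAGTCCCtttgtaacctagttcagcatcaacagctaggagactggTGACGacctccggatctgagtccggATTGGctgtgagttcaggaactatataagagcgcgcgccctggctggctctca
Tap1, chr17:34187331-34187555, plus strand: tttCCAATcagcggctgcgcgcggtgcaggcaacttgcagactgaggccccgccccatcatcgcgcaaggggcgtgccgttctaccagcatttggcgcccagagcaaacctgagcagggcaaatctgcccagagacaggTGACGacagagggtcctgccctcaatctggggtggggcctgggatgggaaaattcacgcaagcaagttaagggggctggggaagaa

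The H2-K1 and H2-D1 windows hold the same order of matches, first the NF-κB letters (where neighbouring matches on both strands overlap), then the interferon regulatory factor core, TGACG and CCAAT. The B2m window holds the interferon letters ahead of the NF-κB letters. The Tap1 window is the whole of the 225 bp between Tap1 and Psmb9, which are transcribed away from each other, so that it lies upstream of both. Of 7 members with a RefSeq promoter window of 300 bases (250 before and 50 after the start), GAAANNGAAA was in 1 (B2m), AANNGAAA in 3, GGGANNNNCC in 3, TGACG in 5 and CCAAT in 6. Over all 32851 such windows, the shares were 3.44% for GAAANNGAAA, 23.9% for AANNGAAA, 20.7% for GGGANNNNCC, 20.8% for TGACG and 37.4% for CCAAT. These are matches of letters and not measured sites. The TGACG and CCAAT matches of Tap1 and Psmb9 are the same bases read on opposite strands, and were counted for both members. The window of Psmb8 held none of the 5.

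The targeted genes were read first. Nmnat2 had a mean of 30.1 CPM (range 19.9 to 42.6) in cKO;S/S, 22.8 CPM (20.3 to 29.4) in cKO;S/+ and 38.5 CPM (35.6 to 42.4) in ctrl-2. It was called lower in these sorted libraries in cKO;S/+ than in ctrl-2 (log2 fold change -0.76 ± 0.192, SE, edgeR adjusted p = 0.0341), with no overlap, and not in cKO;S/S, where the libraries overlapped those of both other groups. Sarm1 had a mean of 6.09 CPM (4.82 to 7.22) in cKO;S/S, 8.79 CPM (6.13 to 10.1) in cKO;S/+ and 9.44 CPM (5.73 to 12.8) in ctrl-2. Its log2 fold change in cKO;S/S was -0.63 ± 0.244 over ctrl-2 (SE, edgeR adjusted p = 0.379) and was not called, so transcripts were counted in mice labelled Sarm1-/-. Whether the counted exons include the altered part of either gene was not checked.

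Library totals were 16506627 to 22159404 counts, and each member had between 22 and 9902 counts in every library. Expression is given as CPM (counts relative to library size) with library sizes scaled by the trimmed mean of M values (TMM), and tests are those of edgeR's quasi-likelihood fit over the 12 libraries, with Benjamini-Hochberg adjustment across the 15089 genes; an adjusted p under 0.05 is called. The astrocyte markers summed to 21323 to 33992 CPM in cKO;S/S, 28209 to 34937 CPM in cKO;S/+ and 33188 to 36884 CPM in ctrl-2, and none of the 14 passed the edgeR test in any comparison (1 to 3 had an unadjusted p under 0.05). Among all genes, 2161 were higher and 1395 lower at that level in cKO;S/+ over ctrl-2. The counts were 1025 and 735 in cKO;S/S over ctrl-2, and 1375 and 1383 in cKO;S/S over cKO;S/+. The sorted cells also held other cell types. The 20 microglia markers, none of which was at 0 in any library, summed to 4652 to 6865 CPM in cKO;S/S, 6043 to 10928 CPM in cKO;S/+ and 3378 to 6781 CPM in ctrl-2. In bulk samples, fewer cells of a type and less RNA per cell cannot be told apart.

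In the comparison of cKO;S/+ with ctrl-2 astrocytes, 9 of the 10 members were higher in cKO;S/+, and Psmb9 did not pass the test. Over all genes, 5.9% were called higher in this comparison (890 genes, with 208 called lower). The members' log2 fold changes ran between 0.40 (Tap2) and 1.94 (Nlrc5), with a median of 1.23, while the median of all genes was -0.0020. All libraries of cKO;S/+ lay above all of ctrl-2 for 5 members, H2-K1, H2-D1, H2-K2, Tapbp and Psmb8, which was true of 6.53% of all genes. In cKO;S/S astrocytes no member was called against either of the other groups, and all 10 had fitted levels between those of the other genotypes.

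**Figure D1:**
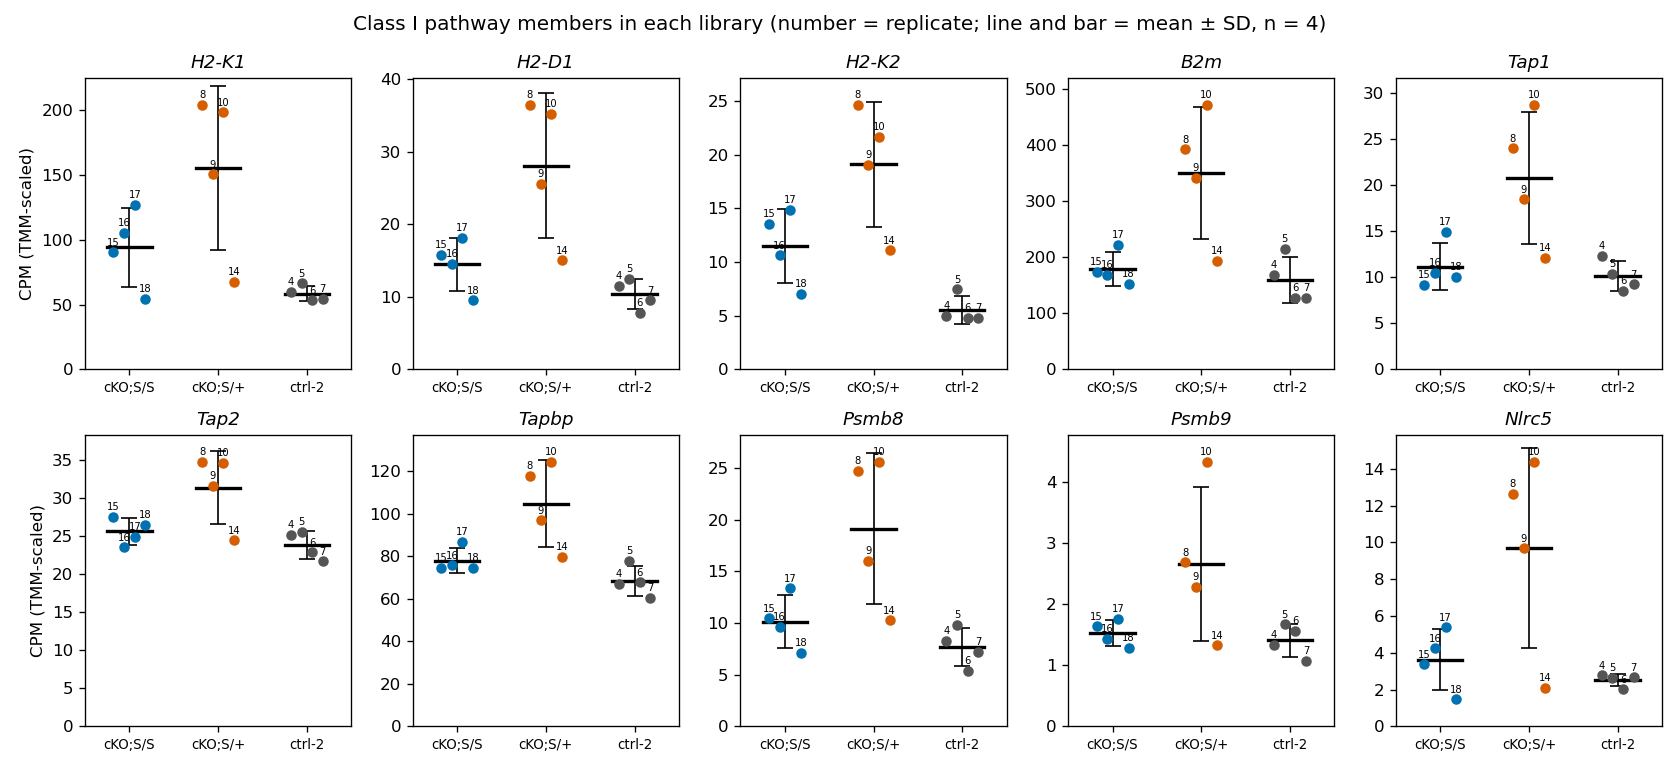
CPM (TMM-scaled, y axes from 0) of the 10 members in each of the 12 libraries, by genotype; numbers give the replicate and the line and bar the mean and SD of 4 libraries. Replicates 8, 9 and 10 of cKO;S/+ stand highest for each member, and replicate 14 lies near the other 2 genotypes.

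The classical heavy chain gene H2-K1 was the most abundant heavy chain per length, with 94.2 ± 38.4 CPM per kb of exon in cKO;S/+ and 35.5 ± 3.61 CPM per kb in ctrl-2 (SD, n = 4 each). Its libraries had 90.3, 105, 127 and 54.5 CPM in cKO;S/S (replicates 15, 16, 17 and 18), 204, 151, 198 and 67.3 CPM in cKO;S/+ (replicates 8, 9, 10 and 14) and 59.7, 66.3, 53.4 and 54.4 CPM in ctrl-2 (replicates 4, 5, 6 and 7). All 4 cKO;S/+ libraries were above ctrl-2, but replicate 14 by little, and cKO;S/S spread from the ctrl-2 level to between the other groups. The log2 fold change of H2-K1 in cKO;S/+ over ctrl-2 was 1.41 ± 0.305 (SE), with an edgeR adjusted p of 0.0228.

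H2-D1, the other classical heavy chain gene measured, had 15.8, 14.5, 18.2 and 9.51 CPM in cKO;S/S, 36.5, 25.6, 35.2 and 15.01 CPM in cKO;S/+ and 11.6, 12.5, 7.84 and 9.51 CPM in ctrl-2. The cKO;S/+ libraries were all above ctrl-2, and replicate 14 fell among those of cKO;S/S. H2-D1 was higher in cKO;S/+ than in ctrl-2 by 1.44 ± 0.267 on the log2 scale (SE, edgeR adjusted p = 0.0186).

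H2-K2, the pseudogene that lies 17220 bp from H2-K1, had 13.6, 10.6, 14.9 and 7.04 CPM in cKO;S/S, 24.7, 19.1, 21.7 and 11.1 CPM in cKO;S/+ and 4.96, 7.45, 4.82 and 4.81 CPM in ctrl-2. It separated cKO;S/+ from ctrl-2 without overlap, and 3 of the 4 cKO;S/S libraries also lay above every ctrl-2 library. Its log2 fold change was 1.79 ± 0.271 in cKO;S/+ over ctrl-2 (SE, edgeR adjusted p = 0.0138). H2-K2 had the largest log2 fold change of the members in cKO;S/S over ctrl-2, 1.07 ± 0.272, which did not pass the test (edgeR adjusted p = 0.338).

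H2-K2 and H2-K1 each share sequence windows with transcripts of other genes, led by Gm11127 and H2-T22 for H2-K2. How much H2-K2 shares with H2-K1 itself is not given here. Their ratio of counts per exonic length was also taken, after the values had been seen and so with no test. The ratio was 18.7, 12.6, 14.5 and 16.1% in cKO;S/S, 15.02, 15.7, 13.6 and 20.5% in cKO;S/+ and 10.3, 13.96, 11.2 and 10.99% in ctrl-2. Replicate 5 of ctrl-2 was above 1 library of each other group, and the other 3 ctrl-2 libraries were below all 8.

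B2m, whose protein is the light chain of every class I molecule, was the most abundant member per length, at 209 ± 34.9 CPM per kb in cKO;S/S, 407 ± 137 CPM per kb in cKO;S/+ and 186 ± 48.4 CPM per kb in ctrl-2 (SD, n = 4 each). Its libraries had 174, 169, 222 and 153 CPM in cKO;S/S, 392, 342, 471 and 193 CPM in cKO;S/+ and 168, 215, 127 and 127 CPM in ctrl-2. The first 3 cKO;S/+ libraries were far above all others, and replicate 14 was below replicate 5 of ctrl-2, so these groups overlapped. B2m was higher in cKO;S/+ than in ctrl-2 by 1.13 ± 0.243 on the log2 scale, a 2.19-fold difference (SE, edgeR adjusted p = 0.0224).

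Among the loading genes, Tap1 and Tap2 code for the 2 chains of the peptide transporter. Tap1 had 9.21, 10.51, 14.97 and 10.04 CPM in cKO;S/S, 24.03, 18.5, 28.8 and 12.1 CPM in cKO;S/+ and 12.4, 10.4, 8.57 and 9.22 CPM in ctrl-2. Replicate 14 of cKO;S/+ was just below replicate 4 of ctrl-2, the single overlap between these groups. The log2 fold change of Tap1 was 1.04 ± 0.237 in cKO;S/+ over ctrl-2 (SE, edgeR adjusted p = 0.0248).

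Tap2 moved least of the members. It had 27.6, 23.5, 24.9 and 26.5 CPM in cKO;S/S, 34.8, 31.7, 34.7 and 24.5 CPM in cKO;S/+ and 25.2, 25.5, 22.9 and 21.7 CPM in ctrl-2. Replicates 8, 9 and 10 of cKO;S/+ were above all other libraries, and replicate 14 was within the range of ctrl-2. Its log2 fold change was 0.40 ± 0.109 in cKO;S/+ over ctrl-2 (SE, edgeR adjusted p = 0.0456).

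Tapbp, which codes for tapasin, had 74.7, 75.7, 86.8 and 74.5 CPM in cKO;S/S, 118, 96.9, 124 and 79.9 CPM in cKO;S/+ and 67.2, 77.9, 67.8 and 60.6 CPM in ctrl-2. All cKO;S/+ libraries were above ctrl-2, replicate 14 by a small margin. Tapbp was higher in cKO;S/+ than in ctrl-2 by 0.62 ± 0.125 on the log2 scale (SE, edgeR adjusted p = 0.0210).

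Most other genes of peptide loading did not share this pattern. Of 11 further loading genes measured, such as the chaperone and trimming genes, only Tapbpl, coding for the tapasin-related editor TAPBPR, was called higher in cKO;S/+ than in ctrl-2 (log2 fold change 0.60 ± 0.160, SE, edgeR adjusted p = 0.0426), and their median log2 fold change was -0.0019. Canx, the calnexin gene, which had the most CPM of them but not the most per length, had a log2 fold change of -0.02 ± 0.081 (SE). Of 9 further class I and class I-like heavy chain genes, 6 were called higher, with a median of 1.31. They included H2-T23 (1.504), H2-Q4 (1.68) and H2-Q5 (2.59), genes of non-classical heavy chains, with edgeR adjusted p of 0.0186, 0.0199 and 0.0214 in that order. Fcgrt, the neonatal Fc receptor chain and the most abundant of this list, had a log2 fold change of 0.22 ± 0.106 (SE) and was not called.

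Psmb8 and Psmb9 code for catalytic subunits that take the places of Psmb5 and Psmb6 in the immunoproteasome. Psmb8 had 10.47, 9.65, 13.4 and 7.10 CPM in cKO;S/S, 24.7, 16.0, 25.6 and 10.3 CPM in cKO;S/+ and 8.30, 9.83, 5.37 and 7.18 CPM in ctrl-2. The cKO;S/+ libraries did not overlap those of ctrl-2, although replicate 14 exceeded replicate 5 of ctrl-2 by little. Psmb8 was higher in cKO;S/+ than in ctrl-2 by 1.32 ± 0.282 on the log2 scale (SE, edgeR adjusted p = 0.0224).

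Psmb9 had 1.64, 1.44, 1.76 and 1.29 CPM in cKO;S/S, 2.69, 2.29, 4.33 and 1.32 CPM in cKO;S/+ and 1.34, 1.67, 1.57 and 1.07 CPM in ctrl-2. Replicates 8, 9 and 10 of cKO;S/+ were above all other libraries, and replicate 14 was inside the range of ctrl-2. Its log2 fold change of 0.92 ± 0.305 in cKO;S/+ over ctrl-2 did not pass the test (SE, edgeR adjusted p = 0.0864).

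The standard proteasome genes did not follow the members. None of 14 core subunit genes and none of 17 genes of the 19S cap was called in any comparison, and the summed level of the core subunits was 547 to 598 CPM in cKO;S/S, 569 to 611 CPM in cKO;S/+ and 563 to 603 CPM in ctrl-2. At an unadjusted p under 0.05, 1 of the 14 and 0 of the 17 differed between cKO;S/+ and ctrl-2. Among all 15089 genes, 2161 were higher and 1395 lower at that level. Psmb10, the third inducible catalytic subunit, was called higher in cKO;S/+ than in ctrl-2 (log2 fold change 0.68 ± 0.163, SE, edgeR adjusted p = 0.0292), as was Psme1, a subunit of the PA28 activator (0.66 ± 0.147, SE, edgeR adjusted p = 0.0236). Psme2, the partner of Psme1, had a log2 fold change of 0.46 and was not called (edgeR adjusted p = 0.0685).

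The Psmb8 to Psmb5 ratio of counts per exonic length, which needs no scaling between libraries, was 41.1, 39.5, 50.1 and 23.4% in cKO;S/S, 82.3, 70.5, 109 and 43.4% in cKO;S/+ and 33.0, 38.7, 21.8 and 37.9% in ctrl-2. Its mean log2 was higher by 1.18 in cKO;S/+ than in ctrl-2, with no overlap between the 4 and 4 libraries. The exact two-sided permutation p was 0.0286, the smallest that 4 against 4 can give, and 0.171 after Benjamini-Hochberg adjustment over the 6 comparisons of 2 ratios. A comparison of this size can pass the threshold after adjustment only if at least 4 of the 6 reach that smallest p.

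The Psmb9 to Psmb6 ratio was 4.34, 4.51, 4.96 and 3.49% in cKO;S/S, 6.06, 6.31, 10.95 and 3.79% in cKO;S/+ and 3.75, 4.96, 4.45 and 3.44% in ctrl-2. The difference of cKO;S/+ from ctrl-2 was 0.62 on the log2 scale (exact permutation p = 0.0857, adjusted p = 0.171). The third pair, Psmb10 to Psmb7, was at 12.05 to 18.8% in cKO;S/S, 15.6 to 25.4% in cKO;S/+ and 12.2 to 13.9% in ctrl-2, and is given without a test.

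**Figure D2:**
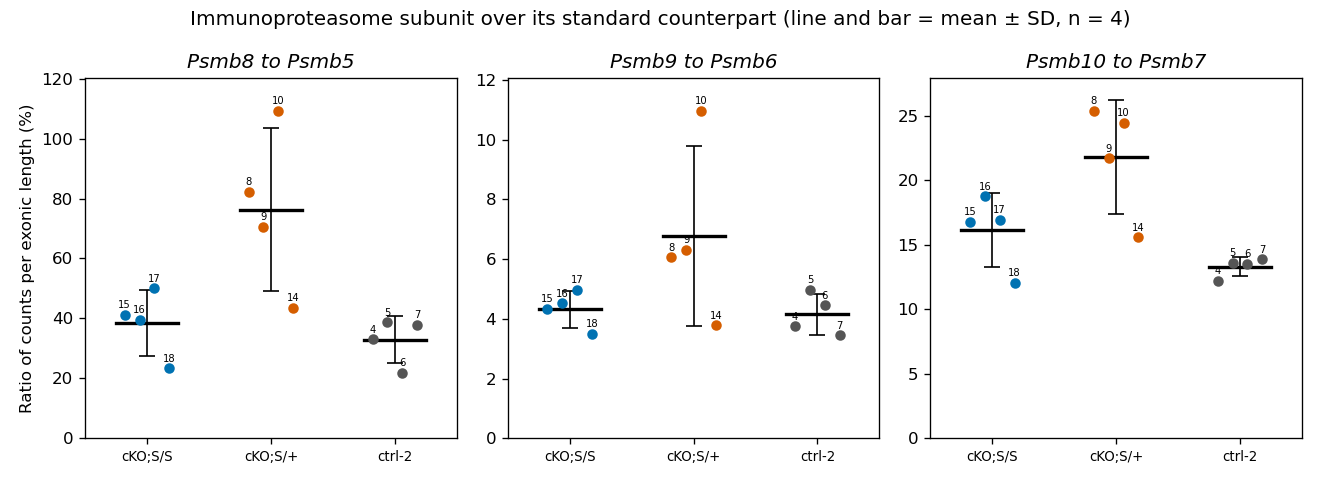
Ratio (in percent, y axes from 0) of counts per exonic length of each immunoproteasome subunit to its standard counterpart in each library, by genotype; numbers give the replicate and the line and bar the mean and SD of 4 libraries. Psmb8 to Psmb5 reached 109% in replicate 10 of cKO;S/+, while no library of cKO;S/S or ctrl-2 was above 50.1%.

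Nlrc5, the coactivator of class I genes, had 3.36, 4.25, 5.38 and 1.47 CPM in cKO;S/S, 12.7, 9.67, 14.4 and 2.10 CPM in cKO;S/+ and 2.77, 2.63, 2.02 and 2.67 CPM in ctrl-2. Replicates 8, 9 and 10 of cKO;S/+ stood well above every other library, and replicate 14 was inside the range of ctrl-2. Its log2 fold change was the largest and the least precise of the members, 1.94 ± 0.479 in cKO;S/+ over ctrl-2 (SE, edgeR adjusted p = 0.0314).

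Of 17 other regulators measured, such as the factors that bind with NLRC5 and the interferon response factors, 6 were called higher in cKO;S/+ than in ctrl-2 and none lower. Rela, an NF-κB subunit, had a log2 fold change of 0.48 (edgeR adjusted p = 0.0180), Irf8, a factor of myeloid cells, 1.44 (edgeR adjusted p = 0.0197), and Irf1, an interferon-induced activator of class I genes, 1.29 (edgeR adjusted p = 0.0210). Irf2, which had the highest log2 CPM of the list as a mean over the 12 libraries, had 0.16 ± 0.064 (SE) and was not called. Of 7 interferon receptor and kinase genes, Ifnar2 (log2 fold change 0.59, edgeR adjusted p = 0.0218) and Ifngr2 (0.66, edgeR adjusted p = 0.0256) were called higher. Of 4 measured immune receptor genes, Lilrb4a was called higher (1.59, edgeR adjusted p = 0.0490). Pirb, the one of them that codes for a class I receptor, was not called (0.67, edgeR adjusted p = 0.314).

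In cKO;S/S against ctrl-2, a comparison that uses the same ctrl-2 libraries, edgeR called 0 of the 10 members and 0% of all genes higher. All 10 members had log2 fold changes above 0, between 0.10 (Tap2) and 1.07 (H2-K2), with a median of 0.30 beside 0.014 for all genes. H2-K1 (0.69 ± 0.303, SE) and H2-K2 had unadjusted p under 0.05, 2 of 10 members, beside 6.79% of all genes that were higher at that level. No member's cKO;S/S libraries all lay above those of ctrl-2, against 2.62% of all genes. The intervals still allowed sizeable differences. That of B2m (0.17) ran from -0.35 to 0.69 on the log2 scale. The likelihood ratio test of edgeR and DESeq2 each called 1 member, H2-K2, and limma-voom called 0. For these tests the share of all genes called is not given here.

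In cKO;S/S against cKO;S/+, a comparison that shares libraries with both others, all 10 log2 fold changes were below 0, between -1.42 (Nlrc5) and -0.29 (Tap2), with a median of -0.85 beside -0.0037 for all genes. edgeR called 0 of 10 members and 0% of all genes lower, with adjusted p for the members of 0.153 to 0.227. At an unadjusted p under 0.05 all 10 members were lower in cKO;S/S, beside 9.17% of all genes. No member separated the groups without overlap, against 2.66% of all genes, since replicate 14 of cKO;S/+ lay among the cKO;S/S libraries. The likelihood ratio test of edgeR and DESeq2 each called 5 members lower and limma-voom called 0. Without replicate 14 of cKO;S/+, edgeR's quasi-likelihood test called all 10. The share of all genes called in these alternative fits is not given here, so the counts cannot be read as particular to the members.

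**Figure D3:**
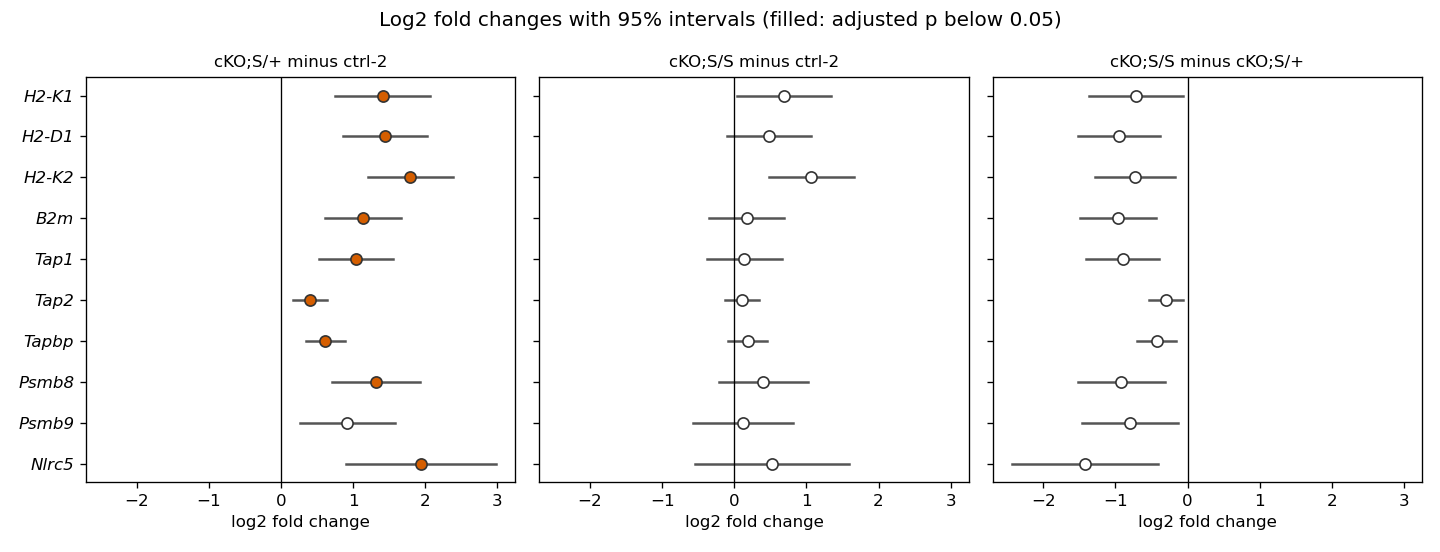
Log2 fold changes (x axis) of the 10 members in 3 comparisons, with 95% intervals; filled points have an adjusted p below 0.05. In cKO;S/+ over ctrl-2, 9 points are filled, and none is in the comparisons with cKO;S/S, where points lie above 0 against ctrl-2 and below 0 against cKO;S/+.

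The number of members called in cKO;S/+ against ctrl-2 changed with the library left out. No member was called without replicate 8 of cKO;S/+ or without replicate 4, 6 or 7 of ctrl-2, 1 was called without replicate 10 of cKO;S/+, 7 without replicate 9, 8 without replicate 5 of ctrl-2 and 10 without replicate 14 of cKO;S/+. Each of the 10 members kept a log2 fold change above 0 in all 8 of these fits, with medians over the members of 1.05 to 1.43. In the fits that called no member, the lowest edgeR adjusted p among the members ran from 0.0525 to 0.0630. The share of all genes called in each fit is not given here, so the counts cannot be read as particular to the members.

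The members moved with the microglia markers. Of these 20 markers, 15 were called higher in cKO;S/+ than in ctrl-2 and none lower, with a median log2 fold change of 0.91. Among the most abundant were Csf1r, a growth factor receptor of microglia (log2 fold change 0.87), which was called, and Cx3cr1, a chemokine receptor (0.75), which was not. Library by library, the marker sum was 5634, 5264, 6865 and 4652 CPM in cKO;S/S, 10201, 7995, 10928 and 6043 CPM in cKO;S/+ and 4865, 6781, 3914 and 3378 CPM in ctrl-2. The 3 highest sums were those of cKO;S/+ replicates 8, 9 and 10, the libraries in which every member was highest.

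For each 1000 CPM of microglia markers, B2m stood at 30.8, 32.1, 32.4 and 32.8 CPM in cKO;S/S, 38.4, 42.8, 43.1 and 31.9 CPM in cKO;S/+ and 34.6, 31.6, 32.5 and 37.7 CPM in ctrl-2. On this scale the genotypes overlapped, and 3 of 4 cKO;S/+ libraries were above the rest. H2-K2 stood at 2.41, 2.02, 2.16 and 1.51 CPM in cKO;S/S, 2.42, 2.38, 1.98 and 1.84 CPM in cKO;S/+ and 1.02, 1.098, 1.23 and 1.42 CPM in ctrl-2. It was the 1 member of 10 whose libraries lay wholly above those of ctrl-2 on this scale, in cKO;S/+ (0.418% of all genes) and in cKO;S/S (0.252% of all genes). The division by the marker sum was chosen after the values were seen. With the microglia markers as a covariate in the edgeR fit, 0 of 10 members were called in any comparison. The log2 fold changes in cKO;S/+ over ctrl-2 then ran from -0.11 (Psmb9) to 0.78 (H2-K2), with B2m at 0.12 ± 0.143 (SE). The adjusted p of all 10 was 0.9996. How many of all genes were called with this covariate is not given here.

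**Figure D4:**
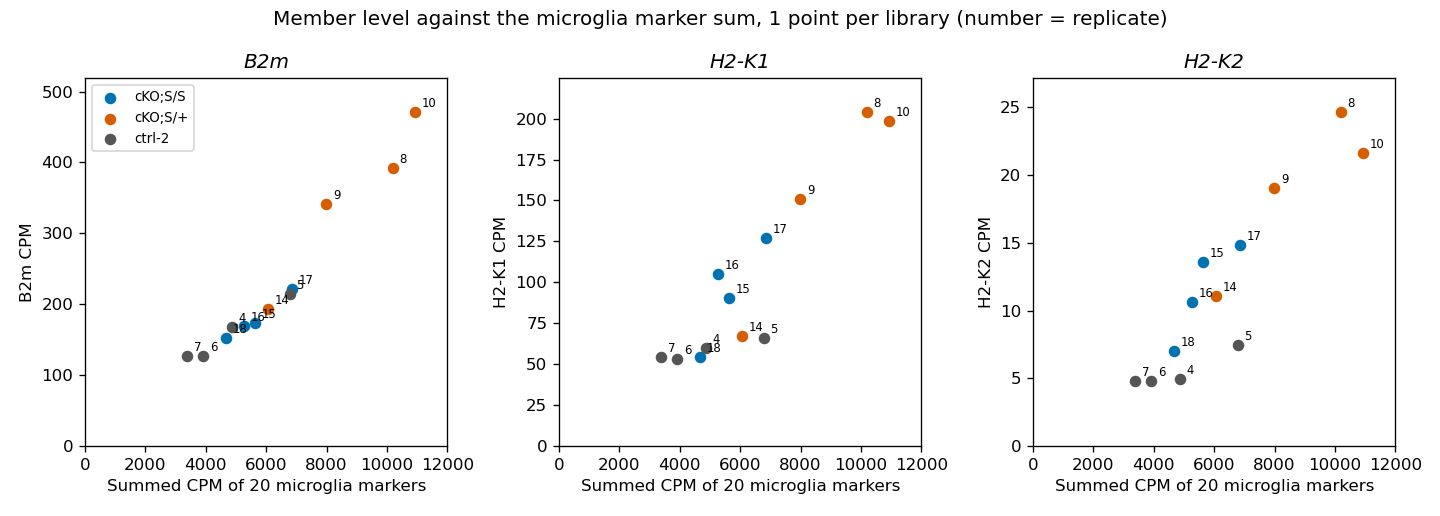
Level of B2m, H2-K1 and H2-K2 (CPM, y axes) against the summed CPM of 20 microglia markers (x axes) in the 12 libraries, coloured by genotype and numbered by replicate. B2m tends to rise with the marker sum and is highest in replicates 8, 9 and 10 of cKO;S/+. No line was fitted. The H2-K2 points of ctrl-2 lie below those of cKO;S/S and cKO;S/+ at like marker sums.

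Endothelial, oligodendrocyte and neuron markers and immediate early genes were read in the same way. In cKO;S/+ over ctrl-2, 2161 of all 15089 genes were higher and 1395 lower at an unadjusted p under 0.05. No endothelial marker of 13 was called in cKO;S/+ over ctrl-2 (3 had an unadjusted p under 0.05). With these markers as a covariate 9 members were called in cKO;S/+ over ctrl-2. The share of all genes called with that covariate is not given here, so the count cannot be read as particular to the members. No oligodendrocyte marker of 14 was called (7 had an unadjusted p under 0.05), and their median log2 fold change was -0.62. Of 11 neuron markers, 1 was called higher in cKO;S/+ over ctrl-2, Gad1, the enzyme of GABA synthesis (log2 fold change 1.58, edgeR adjusted p = 0.0218), named after its value was seen. In cKO;S/S over ctrl-2 no neuron marker was called, while all 11 had log2 fold changes above 0, with a median of 0.99. Of them, 7 had an unadjusted p under 0.05, beside 6.79% of all genes that were higher at that level. The neuron markers summed to 175 to 285 CPM in cKO;S/S, 110 to 202 CPM in cKO;S/+ and 71.0 to 212 CPM in ctrl-2. Immediate early genes moved too, with 14 of 18 called higher in cKO;S/+ than in ctrl-2 and sums of 3661 to 6399 CPM in cKO;S/S, 4804 to 8631 CPM in cKO;S/+ and 2360 to 4264 CPM in ctrl-2, with a median log2 fold change of 1.05. The part of the neuron markers and immediate early genes in the members' result was not tested.

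Xist, which is expressed from the inactive X chromosome of females, was expressed in replicates 16 and 17 of cKO;S/S, in replicates 8, 9 and 10 of cKO;S/+ and in replicate 7 of ctrl-2, and was near 0 in the other 6 libraries. Among libraries with Xist, H2-K1 was at 105 and 127 CPM in cKO;S/S, 204, 151 and 198 CPM in cKO;S/+ and 54.4 CPM in ctrl-2. Among those without it, H2-K1 was at 90.3 and 54.5 CPM in cKO;S/S, 67.3 CPM in cKO;S/+ and 59.7, 66.3 and 53.4 CPM in ctrl-2. The high cKO;S/+ libraries were thus all from females and the low one was from a male, with 1 female among ctrl-2, so sex and replicate 14 cannot be told apart within cKO;S/+. With the log2 CPM of Xist as a covariate, edgeR called 0 of 10 members in cKO;S/+ over ctrl-2. The log2 fold changes were then 0.38 to 1.59, with a lowest edgeR adjusted p of 0.0618. Once replicate 14 was also left out, 9 were called. The share of all genes called is not given here for either fit, so the counts cannot be read as particular to the members.

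The members resembled each other to different degrees in their profile over the 12 libraries. Likeness was measured as the mean absolute difference of log2 CPM after each gene was centred on its mean and divided by its SD. H2-D1 and Psmb8 were the closest pair of members (0.108), and Psmb9 and H2-K2 the farthest apart (0.546). Among 13712 other genes, those closest to B2m were Mpeg1, a macrophage perforin-like gene (0.0823), the lysosomal gene Hexa (0.0970), Ifngr2 (0.0991), Grn (0.120) and the microglia marker Tyrobp (0.120), where the median gene was at 1.12. Closest to H2-K1 were H2-Q5 (0.121), Hps4 (0.137), H2-Q4 (0.141), Zfp622 (0.159) and Blnk (0.159). Closest to Psmb8 were AF251705 (0.115), Tep1 (0.132), the interferon-induced gene Ifi35 (0.134), Ifnar2 (0.146) and Tnfrsf11a (0.148). These values describe 12 libraries that share their genotype groups and the spread in microglia marker level.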

How the data were processed

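Total RNA of sorted astrocytes from 12 mice was sequenced. The authors deposited raw counts per gene, which per the labels came from STAR 2.7.10a and featureCounts (Subread 2.0.3) on mm10, with FastQC 0.11.5 and edgeR 4.2.1. The authors also deposited log2 CPM values and exonic lengths, a length being the number of bases covered by a gene's listed exons. For the annotation, the strand setting and multiply matching reads, the sources used here give nothing. The table's fold change and p-value columns of the authors' own comparisons were not used. Genotypes came from the sample labels.

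Counts were tested with edgeR 4.0.16 (quasi-likelihood F test, TMM, 1 fit of 3 groups, 9 residual degrees of freedom) over 15089 genes, of which filterByExpr removed 0. SEs were derived from the log2 fold change and F. The steps were tested on simulated data. limma 3.58.1, DESeq2 1.42.0, other scalings, filters, covariates and fits without each library were alternatives. Ratios were tested with exact permutation tests (scipy 1.17.1). The members and gene lists were chosen with earlier results of these data known. All 10 members were named. From the other lists, up to 3 genes with the smallest adjusted p and the most abundant were named, plus Psmb10 and the standard counterparts, and the 5 genes with mean log2 CPM of at least 1 whose profiles were nearest to B2m, H2-K1 and Psmb8. With 4 libraries per group the precision is limited, and the parts of counting error and of the spread between mice were not separated. Some genes of the lists are not reported here by name.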

Additional observations from a re-analysis of the deposited data

Results flagged for a closer look

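In 42 sets of 4 libraries checked for a library far from the others (the 10 members and 4 ratios in each genotype), 2 held one, and chance gives about 1 in 20. H2-K2 was at 7.45 CPM in replicate 5 of ctrl-2, above the other 3 libraries of that group, and this gap was 0.941 of the group's range. Tapbp was at 86.8 CPM in replicate 17 of cKO;S/S, above the other 3, with a gap of 0.903 of the range. No reason for either was tested.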

How the results depend on the processing

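No paired analysis was run, since the genotypes share no replicate numbers and the sample labels used here give no litter. For cKO;S/+ over ctrl-2, 9 members were called, 0 to 10 with 1 library left out, 0 with the microglia covariate, 0 with the Xist covariate, and, chosen after seeing the data, 0 with the microglia covariate and 9 with the Xist covariate when replicate 14 of cKO;S/+ was also left out. Other scalings, filters, tools and a fit of these 2 groups alone called 7 to 10. For cKO;S/S over ctrl-2, where 0 members were called, edgeR's likelihood ratio test and DESeq2 called 1 each. For cKO;S/S over cKO;S/+, where 0 were called, they called 5 each, the endothelial covariate 2, fits without 1 library 0 to 10, and the Xist covariate without replicate 14, chosen after seeing the data, 6. The share of all genes called is not given here for these alternatives, so a change in calls cannot be read as particular to the members. The causes were not tested.

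Signs turned round in few cases. With the microglia covariate the log2 fold change of Psmb9 in cKO;S/+ over ctrl-2 was -0.11, that of H2-K1 in cKO;S/S over cKO;S/+ was 0.084, and those in cKO;S/S over ctrl-2 were -0.10 for B2m, -0.11 for Tap1, -0.16 for Psmb9 and -0.032 for Nlrc5. With replicate 14 also left out, the last comparison gave -0.051 for B2m, -0.040 for Tap1 and -0.075 for Psmb9. Without replicate 17 of cKO;S/S it gave -0.035 for Tap1, the lowest of a range up to 0.25. The Psmb9 to Psmb6 difference in cKO;S/S over ctrl-2 was 0.062 on the log2 scale, and -0.0084 without replicate 17 of cKO;S/S and -0.024 without replicate 7 of ctrl-2. Its highest value without 1 library was 0.16.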
